A study of Rattus norvegicus with 6 samples.

Results

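Pericentral Wnt-dependent genes are genes that hepatocytes next to the central vein express under Wnt signalling, and 10 of them were followed here in rat liver: Glul, Slc13a3, Axin2, Lgr5, Tbx3, Rnf43, Znrf3, Lect2, Rhbg and Rgn. They were taken by name and matched to every array probe whose RefSeq accession carries the symbol. This gave 14 probes for 9 of the genes, out of 15639 symbols with a probe. No probe with an accession of Znrf3 was found, so that gene is not analysed here. All 9 others were tested among 11939 genes. The tested livers came from 3 male Sprague-Dawley rats dosed with carbon tetrachloride (CCl4) at 100 mg/kg/day, against 3 male rats of the same outbred stock given corn oil, the vehicle. All 6 rats were purchased at 5 weeks of age. The labels disagree on exposure, since the design text gives 28 days and the treatment protocol 9 weeks. The sample titles also carry the number 28, without a unit, and the files do not settle it. Whole liver RNA was hybridised to 1-colour Agilent arrays, 1 array per rat.

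In the liver lobule, blood flows along hepatocytes to the central vein. Endothelial cells of that vein secrete Wnt ligands and R-spondin 3, which stabilise β-catenin in the nearest hepatocytes and there maintain glutamine synthesis and drug metabolism, whereas urea and glucose synthesis sit mainly at the portal end. CCl4 is converted to reactive products by CYP2E1, an enzyme of the pericentral hepatocytes, and injures that zone first.

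A signal is given below as log2 of the processed signal relative to the 75th percentile of its own array, and a change as the CCl4 mean minus the corn oil mean on that scale. That percentile lay between 582.6 and 675.6 signal units, and 61.9% to 67.3% of the probes of an array were well above background. CCl4 replicate 1 shared the first slide with all 3 corn oil arrays, while CCl4 replicates 2 and 3 were on a second slide scanned on another day. Blocking on slide as a fixed term, which is meant below wherever a slide block is not called random, thus leaves CCl4 replicate 1 alone to carry the CCl4 estimate. As for the labelled tissue, all 15 hepatocyte markers were measured, with a summed signal of 8121 to 10712 times the 75th percentile over both groups. Of 10 kidney markers, 4 were not well above background on any array, among them Nphs1, Slc34a1 and Kl. However, 5 kidney markers were bright enough to be tested, with a summed signal of 12.4 to 18.6 over both groups.

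Promoter sequences were available for 7 of the 10 genes, and are shown where they bear on whether genes with a binding motif of the Wnt transcription factors changed alike. TCF/LEF proteins, which recruit β-catenin to DNA, bind a core written CTTTGAT or CTTTGAA. Both cores were searched on both strands from 250 bases before to 50 bases after each RefSeq transcription start. Either core was present in 8.73% of all 33469 promoter windows, CTTTGAT in 3.63% and CTTTGAA in 5.40%. Among the 7 genes, Axin2, Glul and Lect2 had a match. Axin2 had CTTTGAA 232 bases and CTTTGAT 132 bases before its start, and 0.571% of all windows held 2 or more cores. Glul had ATCAAAG, the reverse complement of CTTTGAT, 230 bases before the upstream one of its 2 annotated starts, and Lect2 had it 68 bases before its start. The window of the other Glul start held neither core and is not printed. Slc13a3, Rhbg, Rnf43 and Rgn held neither core in this window, and none of the 7 genes held CAAAGTCCA, a core of the hepatocyte factor HNF4, which 0.391% of all windows held. The 250 bases before the start are printed from the RefSeq annotation of the GRCr8 build, 5′ to 3′ on the strand of the gene, with matched cores in capitals. Slc13a3 is included because it had the largest change of the 9 genes.
Axin2 (chr10:94398535-94398784, + strand): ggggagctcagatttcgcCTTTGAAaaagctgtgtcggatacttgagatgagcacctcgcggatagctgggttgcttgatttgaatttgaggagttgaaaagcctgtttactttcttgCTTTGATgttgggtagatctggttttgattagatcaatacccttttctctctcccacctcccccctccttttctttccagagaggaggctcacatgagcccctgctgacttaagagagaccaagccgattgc
Glul (chr13:68519250-68519499, + strand): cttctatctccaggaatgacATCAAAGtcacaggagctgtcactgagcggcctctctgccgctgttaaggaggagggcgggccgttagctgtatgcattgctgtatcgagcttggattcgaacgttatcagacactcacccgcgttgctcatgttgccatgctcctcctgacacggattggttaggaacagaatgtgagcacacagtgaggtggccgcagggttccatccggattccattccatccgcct
Lect2 (chr17:8049784-8050033, + strand): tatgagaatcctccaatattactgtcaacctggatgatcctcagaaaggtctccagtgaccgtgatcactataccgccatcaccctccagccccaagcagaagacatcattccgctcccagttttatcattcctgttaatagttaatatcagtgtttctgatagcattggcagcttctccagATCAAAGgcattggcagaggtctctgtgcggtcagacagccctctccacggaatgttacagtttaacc
Slc13a3 (chr3:174623894-174624143, - strand): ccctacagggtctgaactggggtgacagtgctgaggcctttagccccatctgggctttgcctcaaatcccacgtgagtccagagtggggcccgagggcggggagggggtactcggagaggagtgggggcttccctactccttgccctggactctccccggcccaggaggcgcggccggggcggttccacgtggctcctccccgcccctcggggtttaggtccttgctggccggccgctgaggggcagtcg

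As a group these genes did not move together. Of the 9 tested, 5 had a positive and 4 a negative change, with a median of 0.26, against -0.05 over all genes tested. None passed the threshold, an adjusted p below 0.05 in limma over all genes, and 76 of 11939 genes (0.637%) did. At an unadjusted p below 0.05 there were 3 of the 9, Slc13a3, Rhbg and Rgn, where 19.7% of all genes were. The CCl4 and corn oil groups did not overlap for 4 of the 9 (Slc13a3, Rnf43, Rhbg and Rgn), where this held for 27.4% of all genes. The typical change was larger than usual but so was its error: the median size of the change was 0.55 against 0.20 over all genes, and the median SE 0.26 against 0.15. The plot of signals by liver shows these values.

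**Figure D1:**
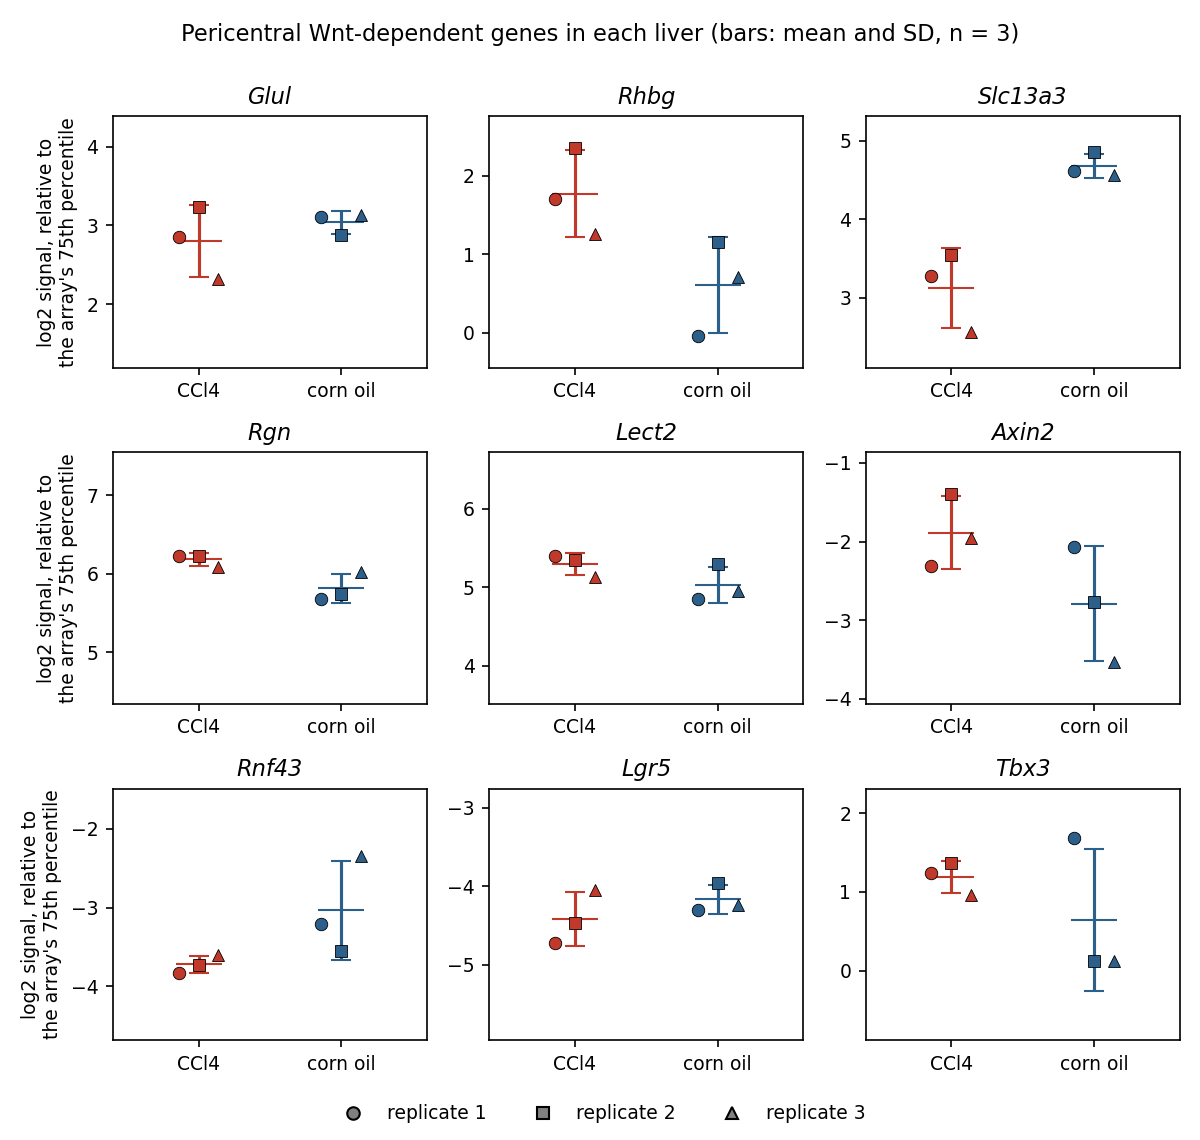
Log2 signal of the 9 measured genes in each liver, relative to the 75th percentile of its array, with CCl4 left of corn oil; every panel spans the same number of log2 units, symbols mark the replicate numbers, and bars give the mean and SD (n = 3). Slc13a3 was below all corn oil livers in each CCl4 liver, Rhbg and Rgn were above them, and Glul overlapped.

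Glul and Rhbg handle ammonia. Glul encodes glutamine synthetase, which fixes ammonia into glutamine in the ring of hepatocytes around the central vein. Its brighter probe (A_44_P381069) had 2.86, 3.24 and 2.31 in CCl4 livers, against 3.11, 2.87 and 3.14 in corn oil livers. The groups overlapped, with CCl4 replicate 2 the highest of all 6 livers and CCl4 replicate 3 the lowest. The change was -0.24 ± 0.24 (SE, n = 3 per group; adjusted p = 0.606), and its 95% confidence interval ran from -0.81 to 0.34. A second Glul probe (A_44_P458704) had 2.31, 2.41 and 1.68 in CCl4 livers, against 2.41, 2.13 and 2.54 in corn oil livers, and a change of -0.23 ± 0.23 (adjusted p = 0.644 over all probes). Both probes had their lowest value in CCl4 replicate 3, and without that array the Glul change was 0.0080.

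Rhbg encodes an ammonia transporter of the hepatocyte membrane. Its probe (A_44_P529240) had 1.70, 2.35 and 1.25 in CCl4 livers, against -0.04, 1.16 and 0.71 in corn oil livers. Every CCl4 liver was above every corn oil liver, although CCl4 replicate 3 and corn oil replicate 2 lay close together. The change was 1.16 ± 0.39, or 2.24-fold, and did not pass (adjusted p = 0.191). Blocking on slide gave 1.09 (adjusted p = 0.509). The 95% interval ran from 0.23 to 2.10, with an SD of 0.55 among CCl4 livers and 0.61 among corn oil livers.

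Other genes of nitrogen handling, a list that includes Glul and Rhbg, were mostly on the negative side. Of its 22 genes 19 were tested, 0 passed, and 17 had a negative change with a median of -0.28. Hepatocyte markers in general were at a like level of change: all 15 were negative, with a median of -0.28, and their summed signal was 8121 to 9544 times the 75th percentile in CCl4 livers, against 9947 to 10712 in corn oil livers. In whole liver, fewer cells of a type and less RNA per cell cannot be told apart. Oat, the ornithine aminotransferase of pericentral hepatocytes, had 4.30, 3.67 and 4.17 in CCl4 livers, against 5.92, 4.64 and 5.59 in corn oil livers. Its groups did not overlap, and its change of -1.34 ± 0.35 did not pass (adjusted p = 0.125). Slc1a2, a glutamate transporter of the same zone, was at -0.0049 ± 0.31 (adjusted p = 0.994), and its other probes at 0.12 and -0.19. Slc38a5, a glutamine transporter, was at -0.67 ± 0.56. The urea cycle genes Cps1 (-0.21 ± 0.48), Ass1 (-0.23 ± 0.20) and Arg1 (-0.30 ± 0.32) and the periportal glutaminase Gls2 (-0.28 ± 0.26) did not pass either.

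Slc13a3 had the largest change of the 9 genes. It encodes NaDC3, a sodium-coupled transporter that carries succinate and other dicarboxylates into cells and is also known from kidney tubules. Its probe (A_43_P12330) had 3.28, 3.55 and 2.56 in CCl4 livers, against 4.62, 4.86 and 4.57 in corn oil livers. All CCl4 livers lay below all corn oil livers, which differed little among themselves, and CCl4 replicate 3 was the lowest. The mean was 3.13 ± 0.51 in CCl4 livers and 4.68 ± 0.16 in corn oil livers (SD, n = 3). The change was -1.55 ± 0.26, 2.93-fold lower, with a 95% interval from -2.18 to -0.92, and it missed the threshold (adjusted p = 0.0639). By unadjusted p it ranked 150 among 11939 genes, and 23 genes had a larger negative change. It passed under 4 of 19 alternatives and not in the fit blocked on slide, which gave -1.40 (adjusted p = 0.281), or with slide as a random block, which gave -1.56 (adjusted p = 0.0569). The adjusted p was 0.0398 after normexp background correction, 0.0429 with a variance trend, 0.0493 among genes well above background on all 6 arrays and 0.0352 without CCl4 replicate 3. Its promoter, printed above, held none of the 3 cores.

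Rgn encodes regucalcin, a calcium-binding protein of hepatocytes that is also the gluconolactonase of vitamin C synthesis in rats. Its probe (A_42_P508471) had 6.22, 6.22 and 6.09 in CCl4 livers, against 5.67, 5.74 and 6.02 in corn oil livers. The CCl4 livers were close to each other and above all corn oil livers, the nearest being corn oil replicate 3. The change was 0.37 ± 0.13, or 1.29-fold (95% interval 0.06 to 0.67; adjusted p = 0.202), and 0.41 with slide as a block (adjusted p = 0.453). Gulo, which carries out the last step of vitamin C synthesis, was at -0.14 ± 0.12 (adjusted p = 0.566). A list of dicarboxylate, ascorbate and gluconate genes includes Slc13a3 and Rgn themselves, which had its lowest and highest change. Of its 9 tested genes 0 passed and 5 were negative. The median was -0.10, and 0.046 with slide as a block.

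Lect2 encodes a protein that hepatocytes secrete, first described as a leukocyte attractant and known as a β-catenin target in mouse liver. Its probe (A_43_P23120) had 5.39, 5.35 and 5.13 in CCl4 livers, against 4.85, 5.29 and 4.95 in corn oil livers. The groups overlapped, since corn oil replicate 2 was above CCl4 replicate 3. The change was 0.26 ± 0.15 (adjusted p = 0.383), with a 95% interval of -0.11 to 0.63.

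Tbx3 encodes a T-box transcription factor that acts downstream of β-catenin in liver. Its brighter probe (A_44_P222030) had 1.24, 1.37 and 0.96 in CCl4 livers, against 1.69, 0.13 and 0.12 in corn oil livers. Corn oil replicate 1 was the highest of all 6, while the other two corn oil livers were the lowest. The second Tbx3 probe showed the same order of groups, with -0.68, -0.26 and -0.47 in CCl4 livers, against -0.15, -1.31 and -1.28 in corn oil livers. The changes were 0.55 ± 0.43 (adjusted p = 0.513) and 0.44 ± 0.33 (adjusted p = 0.541 over all probes). Without corn oil replicate 1 the Tbx3 change was 1.07 and still did not pass (adjusted p = 0.113). Of its T-box relatives and the relatives of Rnf43 and Znrf3, 6 of 12 listed genes were tested, Tbx3 and Rnf43 included, and 0 passed, with a median of -0.01.

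Axin2, Rnf43 and Lgr5 are feedback parts of the Wnt pathway as well as its targets. Axin2 is a scaffold of the complex that destroys β-catenin, and is used as a general readout of the pathway. Its probe (A_44_P262371) had -2.31, -1.39 and -1.96 in CCl4 livers, against -2.07, -2.76 and -3.54 in corn oil livers. CCl4 replicates 2 and 3 were above all corn oil livers, and CCl4 replicate 1 was not. The change was 0.90 ± 0.41 (95% interval -0.09 to 1.89; adjusted p = 0.281). With slide as a block, which rests on CCl4 replicate 1, the Axin2 change was 0.48 (adjusted p = 0.749), and it was 0.55 after normexp correction, 0.53 when corn oil replicate 3 was left out and 1.26 when corn oil replicate 1 was. The 3 genes with a TCF/LEF core in the printed promoters thus had changes of 0.90 (Axin2), 0.26 (Lect2) and -0.24 (Glul), none past the threshold. For Glul the core lay only at the upstream start.

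Rnf43 encodes a membrane ubiquitin ligase that removes Frizzled receptors, as its relative ZNRF3 does. Its brighter probe (A_43_P23147) had -3.83, -3.73 and -3.61 in CCl4 livers, against -3.21, -3.56 and -2.34 in corn oil livers. The groups did not overlap, but corn oil replicate 2 lay near the CCl4 livers and corn oil replicate 3 far above them. The change was -0.69 ± 0.30 (95% interval -1.42 to 0.05; adjusted p = 0.275), and without corn oil replicate 3 it was -0.34. The other Rnf43 probe (A_64_P045586) had -4.27, -4.09 and -4.29 in CCl4 livers, against -3.51, -4.41 and -5.44 in corn oil livers. Here the groups overlapped, corn oil replicate 3 was the lowest instead of the highest liver, and the change was 0.24 ± 0.45 (adjusted p = 0.820 over all probes). The 2 probes of Rnf43 thus disagreed in sign, and their mean gave -0.22 (adjusted p = 0.526).

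Lgr5 encodes an R-spondin receptor that marks hepatocytes beside the central vein and stem cells of other tissues. It was dim on these arrays. Its brightest probe (A_44_P492530) had -4.73, -4.48 and -4.05 in CCl4 livers, of which 2 were well above background, against -4.30, -3.96 and -4.24 in corn oil livers, all of them well above background. The groups overlapped, and the change was -0.25 ± 0.20 (95% interval -0.73 to 0.23; adjusted p = 0.516). Blocking on slide gave -0.56 (adjusted p = 0.414). A second Lgr5 probe was well above background on 1 corn oil array and on none of the CCl4 arrays, and the remaining Lgr5 probe on no array, so neither was tested and no fold is given.

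At the level of single probes, 12 of the 14 were tested among 40478 probes. None passed over all probes, where 138 (0.341%) did, and 3 had an unadjusted p below 0.05, those of Slc13a3, Rhbg and Rgn, where 16.0% of all probes did. With slide as a fixed block none of the 9 genes passed either, where 4 of 11939 genes (0.0335%) did, and the lowest adjusted p among the 9 was that of Slc13a3. With slide as a random block, 0 of the 9 and 105 of all genes (0.879%) passed. The plot of probe changes shows the agreement of both Glul and both Tbx3 probes and the disagreement of the Rnf43 probes.

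**Figure D2:**
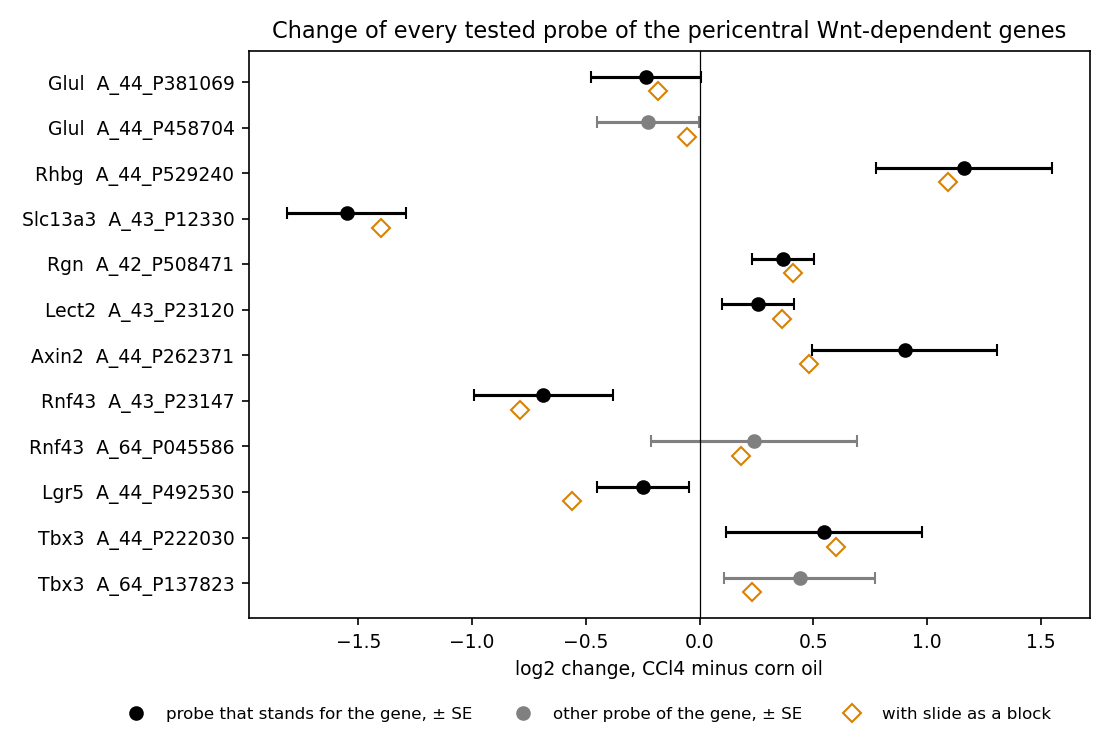
Log2 change, CCl4 minus corn oil, of the 12 tested probes; circles with bars are the change ± SE over all 6 arrays, and open diamonds the change with slide as a fixed block. The Slc13a3 probe lies farthest to the left at -1.55 and the Rhbg probe farthest to the right at 1.16, and no diamond lies on the other side of 0 from its circle.

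The rest of the Wnt pathway was read from lists of its parts. Ligands and R-spondins were mostly dim: 10 of 25 were tested, 0 passed, the median was -0.03, and 11 with a probe were not well above background on any array, among them Wnt5a and Rspo2. Wnt2 had no matched probe and is not analysed here. Wnt9b, a ligand of liver endothelium, was at 0.12 ± 0.23 (-0.040 on its other tested probe) and Rspo3, the R-spondin of the central vein, at 0.41 ± 0.63. Rspo3 varied widely within groups, with -1.65, 0.23 and -0.24 in CCl4 livers, against -0.50, -0.33 and -2.07 in corn oil livers, and was -0.68 with slide as a block. Wls, which carries Wnt proteins to the cell surface, was at 0.45 ± 0.10 with groups that did not overlap (adjusted p = 0.0914) and at 0.17 on its other probe, Wnt11 at -0.30 ± 0.23 and Wnt7a at -0.24 ± 0.13. Markers of endothelium, the cells that make these ligands, include Wnt9b and Rspo3 themselves. The markers had a summed signal of 67.9 to 88.2 in CCl4 livers, against 77.7 to 93.4 in corn oil livers, with 0 of 18 past the threshold. The part of those cells in the values was not tested.

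Among receptors 14 of 19 were tested, 0 passed, 11 were negative and the median was -0.21. Fzd4, a Frizzled receptor, had -3.52, -4.30 and -3.71 in CCl4 livers, against -2.51, -2.64 and -2.97 in corn oil livers. All CCl4 livers were below all corn oil livers, and the change of -1.13 ± 0.23 did not pass (adjusted p = 0.0822). Fzd1 was at -0.56 ± 0.31, Fzd2 at 0.45 ± 0.36, the co-receptor Lrp6 at 0.03 ± 0.22 (-0.21 on its other probe) and the R-spondin receptor Lgr4 at 0.00044 ± 0.11 (adjusted p = 0.998). Of 32 genes that carry or restrain the signal inside the cell, 25 were tested, 0 passed and the median was -0.07. Ctnnb1, which encodes β-catenin, was at -0.19 ± 0.12 on one probe and 0.09 on another, and Apc, a scaffold of the destruction complex, at 0.25 ± 0.12 and -0.05. Tcf7l1, a TCF factor, was at -0.55 ± 0.17 (-0.14 and -0.19 on its other probes). Dvl3 was at -0.79 ± 0.52, with -6.91, -5.11 and -4.98 in CCl4 livers, of which 1 was well above background. Its corn oil livers, at -4.69, -4.76 and -5.17, were all well above background. The kinase gene Csnk1e was at 0.32 ± 0.14 (0.093 to 0.61 on its other probes) and the tankyrase gene Tnks at 0.47 ± 0.21. Tcf7l2 and Tcf7 had no matched probe, and Lef1 was well above background on 1 array at 1 of its 3 probes.

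Secreted and intracellular inhibitors numbered 22, of which 11 were tested and 0 passed, with a median of -0.06. Notum, a secreted lipase that inactivates Wnt proteins and is itself a β-catenin target of pericentral hepatocytes, had 0.07, 0.67 and 0.88 in CCl4 livers, against 1.46, 1.46 and 1.59 in corn oil livers. Its corn oil livers were nearly equal and all above the CCl4 livers, and its change of -0.96 ± 0.22 did not pass (adjusted p = 0.0956). Blocking on slide gave -1.44 (adjusted p = 0.135). Sfrp5 was at -0.32 ± 0.28, and its other tested probes at -0.32 and -0.076. Dkk3, a distant relative of the Dickkopf inhibitors, had 0.39, 0.41 and -0.56 in CCl4 livers, against -1.44, -1.10 and -1.48 in corn oil livers. The groups did not overlap, and the change of 1.42 ± 0.29 did not pass (adjusted p = 0.0783). Frzb, a secreted Frizzled-like protein, was at 1.21 ± 0.39 (adjusted p = 0.183). Stellate cell and myofibroblast markers, tested for 17 of 18 genes, had a summed signal of 66.0 to 93.3 in CCl4 livers, against 48.3 to 59.5 in corn oil livers, with 14 positive and 0 past the threshold. Their part in the values of Dkk3 and Frzb was not tested.

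General Wnt target genes held the only genes past the threshold in the pathway lists. The list includes Axin2, Lgr5, Rnf43 and Tbx3, and also Notum, Nkd1 and Sp5, which are among the other pericentral genes. Of 17 tested 2 passed, both higher in CCl4 livers, 11 were positive and 6 negative, and the median was 0.26. Notum, described above, had the lowest change of the list at -0.96. Cd44, a hyaluronan receptor, had 0.04, 0.28 and -0.38 in CCl4 livers, against -2.38, -1.84 and -2.45 in corn oil livers, which was clear of overlap (2.21 ± 0.23; adjusted p = 0.0252). Birc5, a mitotic survival protein, had -0.46, -0.35 and -0.54 in CCl4 livers, against -1.51, -1.17 and -1.46 in corn oil livers (0.93 ± 0.13; adjusted p = 0.0462). Of 2 other Cd44 probes above background on all arrays, one gave 2.17 and one 0.05. With the mean of a gene's probes in the limma fit, Cd44 was at 1.47 and did not pass (adjusted p = 0.0510). Neither gene passed with slide as a fixed block, where Cd44 was at 2.27 (adjusted p = 0.195) and Birc5 at 0.92 (adjusted p = 0.226). Both passed with slide as a random block, Cd44 at an adjusted p of 0.0227 and Birc5 at one of 0.0404. Birc5 is also one of the markers of dividing cells, of which 13 of 13 tested were positive and 5 passed, with a summed signal of 14.4 to 17.9 in CCl4 livers, against 5.82 to 7.69 in corn oil livers. Cd44 did not pass without CCl4 replicate 1 or 2 or corn oil replicate 1 or 3, nor Birc5 without any array other than CCl4 replicate 3. The part of dividing cells in the Birc5 value was not tested. Among 17 macrophage markers tested, 10 were positive and 7 negative, and 3 passed, all higher in CCl4 livers. The part of macrophages and of stellate cells in the Cd44 value was not tested. Sp5 (0.39 ± 0.41), a transcription factor that follows Wnt signalling in many tissues, and Nkd1 (-0.05 ± 0.12), a feedback inhibitor, did not pass, and the other two Nkd1 probes gave 0.49 and 0.62.

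Zonated genes in general were mostly on the negative side, whereas the 9 genes were 5 positive and 4 negative. Of 35 other pericentral genes 33 were tested, 0 passed and 24 were negative, with a median of -0.24. Of 35 periportal genes 28 were tested, 0 passed and 24 were negative, with a median of -0.30. Both medians were near the -0.28 of the hepatocyte markers, and no difference between the lists was tested. Among pericentral enzymes, Cyp1a2 had 4.92, 4.23 and 4.58 in CCl4 livers, against 6.01, 5.55 and 5.41 in corn oil livers, without overlap (-1.08 ± 0.23; adjusted p = 0.0868). Cyp2e1, which activates CCl4, had 8.27, 8.53 and 7.65 in CCl4 livers, against 8.65, 8.57 and 8.45 in corn oil livers. Its groups overlapped and its change was -0.40 ± 0.23 (adjusted p = 0.370). Cyp2c11 was at -1.27 ± 0.51, Gstm3 at 2.24 ± 0.55 and Cyp7a1, the first enzyme of bile acid synthesis, at 1.22 ± 1.14, none past the threshold. At the portal end, Igfals (-0.81 ± 0.15; adjusted p = 0.0725), Cyp4a2 (-0.76 ± 0.34), Hal (-0.54 ± 0.35), Pck1 (-0.44 ± 0.21), Sds (0.77 ± 0.49, and 0.42 on its other probe) and Aldh1b1 (1.97 ± 0.68, but 0.04 on its other probe) did not pass. Alb, which encodes albumin, was at -0.21 ± 0.14 (adjusted p = 0.434).

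**Figure D3:**
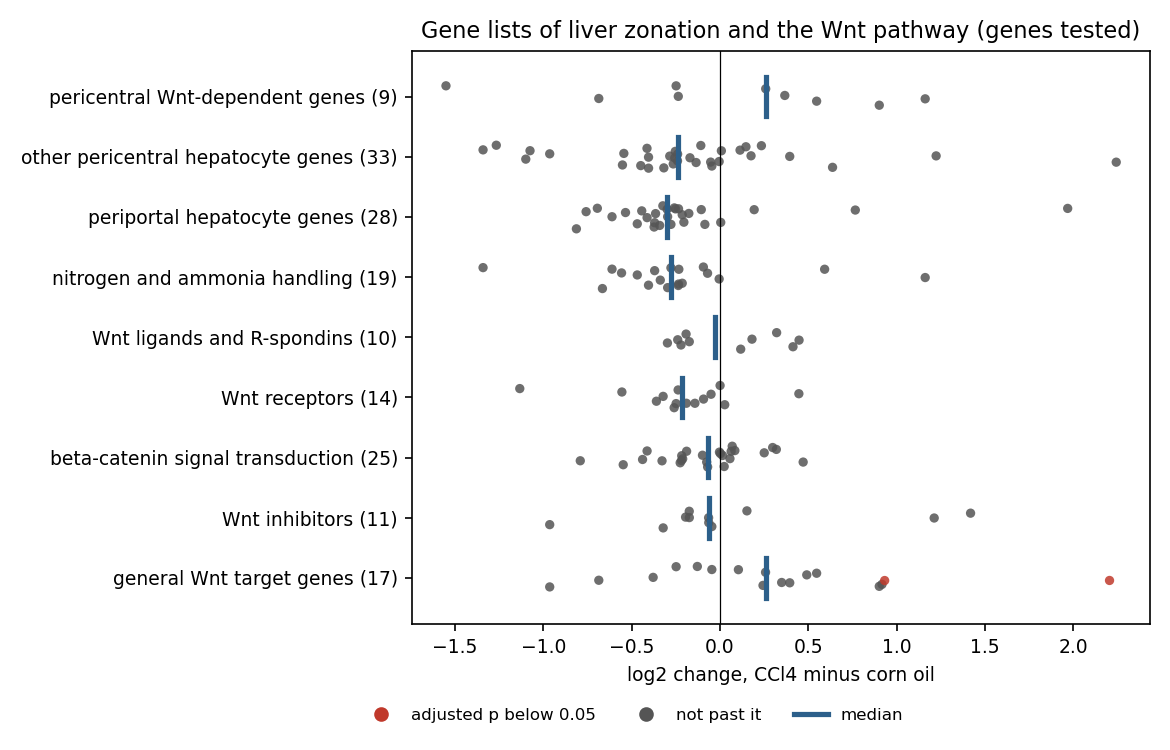
Log2 change, CCl4 minus corn oil, of each tested gene in the zonation and Wnt pathway lists, with the number tested in brackets and the list median as a bar; heights within a row carry no meaning. The 9 pericentral Wnt-dependent genes lie on both sides of 0 with a median of 0.26, the other pericentral and the periportal genes have medians of -0.24 and -0.30, and the 2 red points are Cd44 and Birc5.

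Within the CCl4 group the livers did not rank alike for these genes. CCl4 replicate 3 was the lowest of the 3 CCl4 livers for 6 of the 9 genes (Glul, Slc13a3, Tbx3, Lect2, Rhbg and Rgn), whereas it was so for 32.0% of all genes, and CCl4 replicate 2 was the lowest for 0 of the 9, against 38.0% of all genes. This was looked for after the values were seen. Across the 6 arrays, the genes whose pattern was most like that of Glul were Ccdc69, Gab1 and Hoxa2, with Pearson correlations of 0.989, 0.976 and 0.971 among 11100 other genes well above background on every array. For Axin2 they were Sult1e1 (0.985), Sytl4 (0.976) and Gnb1 (0.974), and for Lect2 they were Sil1 (0.987), Niban1 (0.986) and Tmem120b (0.986). With only 6 points shared by 2 groups, the named genes were not alone. Of the 11100 genes, 14 correlated over 0.95 with Glul, 18 with Axin2 and 78 with Lect2.

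The plot of processing alternatives shows how far each change moved. Slc13a3 stayed between -1.76 and -1.27 and Rhbg between 0.84 and 1.44 over 19 alternatives, and Rgn between 0.30 and 0.47. Glul spanned -0.45 to 0.0080, and its change was the only one of the 9 to cross 0. Axin2 spanned 0.48 to 1.26, Tbx3 0.28 to 1.07, Rnf43 -0.95 to -0.22, Lect2 0.17 to 0.39 and Lgr5, over 18 alternatives, -0.56 to -0.09.

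**Figure D4:**
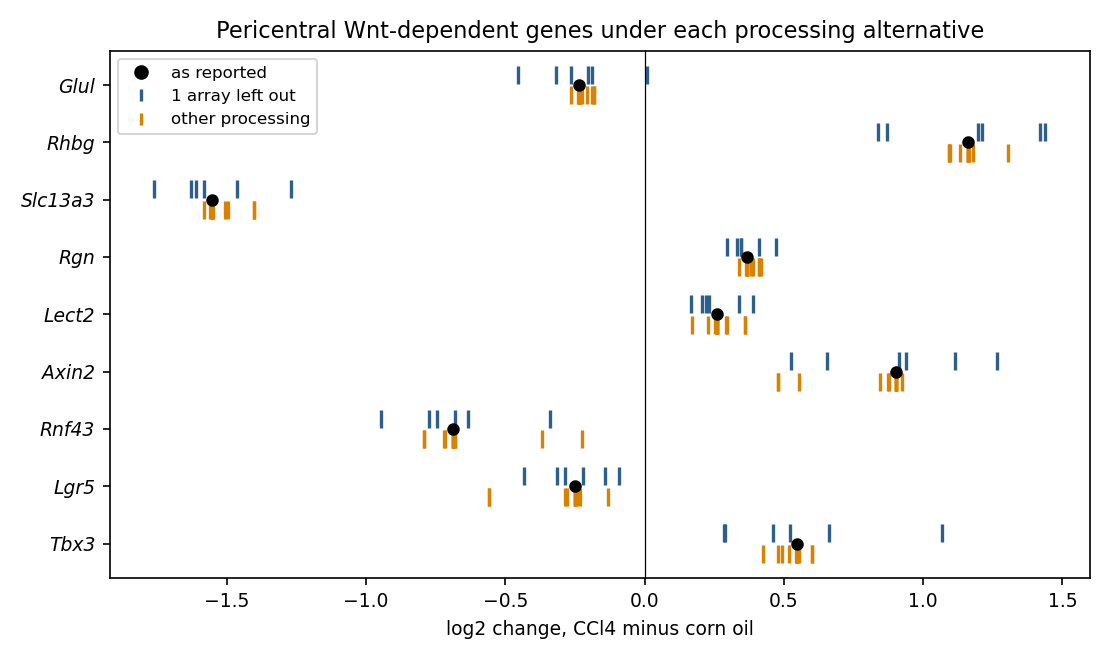
Log2 change, CCl4 minus corn oil, of the 9 genes as reported (circles), with 1 array left out (upper ticks) and under the other processing alternatives (lower ticks). Slc13a3 lies at -1.76 to -1.27 throughout, while Glul reaches 0.0080 without CCl4 replicate 3.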

How the data were processed

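Liver RNA of 6 rats, 3 given CCl4 and 3 corn oil, was labelled with Cy3 and read on 1-colour Agilent rat arrays. Deposited per array are each spot's intensity values after background subtraction in Agilent Feature Extraction, version 10.7.1.1 per the file headers and 10.7 as the submitters' processing notes have it, with other columns of flags, 0 or 1, for spots above background or outlying. The deposited value table, a linear ratio in proportion to the processed signal, served as an alternative; how the authors scaled it is not given in the sources used here, and the divisor implied by its values, 583.3 to 676.5 signal units, lay near the 75th percentile. Columns had medians of 0.103 to 0.110. It is not centred by gene, and as each column is 1 array it has no direction.

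Signals were log2-transformed after division by the 75th percentile of each array over 61537 probes other than controls. The 26 probes with an outlier flag were left out. RefSeq accessions were matched to symbols in a GRCr8 gene table, which named 28193 probes (45.8%) with 1 symbol each and left 33318 unnamed. The array design names an older build, so no probe coordinates are given. A gene was tested by its brightest probe among those that exceeded background clearly in 3 or more of the 6 arrays. limma 3.58.1 in R 4.3.3 (lmFit, eBayes, two-sided) was used with Benjamini-Hochberg adjustment over all genes or all probes and a threshold of 0.05, and was tested on simulated data. Precision is limited by 3 arrays per group, and 0 to 4 probes per array were saturated. The labels number the replicates of each group as separate animals.

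The genes and lists were chosen with earlier results of these data known. Named are all 10 genes of the set, 24 fixed genes of zonation and the Wnt pathway, the 2 highest and 2 lowest changes of each list (for the 2 small lists of relatives, counts only), and the 3 genes most like Glul, Axin2 and Lect2; Wnt5a and Rspo2 were added after their values were seen. A few genes of the rule and of the marker lists are not reported here. The planned normexp correction used median spot signals. Python 3.11.15 and statmod 1.5.0 were also used.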

Additional observations from a re-analysis of the deposited data

How the results depend on the processing

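With 3 arrays per group, and CCl4 replicates 2 and 3 on a slide without corn oil, slide and animal can each move a value. Lgr5 was well above background on 2 of 3 CCl4 arrays, which limits its change. With normexp Axin2 was at 0.55 and Rnf43 at -0.37, and the cause was not tested. Of 170 values of the 9 genes under alternatives, 165 kept their direction and side of the threshold, 4 passed it (Slc13a3) and 1 crossed 0 (Glul, 0.0080 without CCl4 replicate 3). The count of the 9 genes past the threshold was 1 with normexp, with a variance trend and with the filter on all 6 arrays, 0 to 1 with 1 array left out (1 without CCl4 replicate 3), and 0 otherwise. It was 0 for their probes throughout, and their median stayed between 0.17 and 0.36. Over all genes, 76 passed, against 128 with array weights, 139 with the filter on all 6 arrays, 217 with normexp, 156 with a variance trend, 105 with slide as a random block, 4 with slide as a fixed block, 0 within the first slide and 2 to 241 with 1 array left out (2 without CCl4 replicate 2, 241 without CCl4 replicate 3). Over all probes, 138 passed, against 62 without a filter, 254 with a variance trend, 157 with slide as a random block, 13 with slide as a fixed block, 0 within the first slide and 2 to 256 with 1 array left out. The replicate block, which rests on numbers that the labels do not say pair the animals (correlations of deviations -0.05, 0.16 and 0.02), gave 10 genes, 0 probes and 0 of the 9 genes. For these counts the cause was not tested.

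Among 45 other genes, 35 of 854 values crossed 0, all without passing. With slide as a fixed block and within the first slide these were Rspo3 (-0.68), Lgr4 (-0.035), Slc1a2 (0.10), Lrp6 (-0.25) and Tnks (-0.014). Others were Lgr4 (-0.0042) and Slc1a2 (0.0055) with array weights, Nkd1 (0.36) and Lrp6 (-0.093) with probe means, Lgr4 (-0.029) and Lrp6 (-0.0027) with median scaling, and Wnt9b (-0.030) and Lrp6 (-0.018) with normexp. With 1 array left out, Nkd1 ranged from -0.11 to 0.032, Cps1 from -0.61 to 0.15, Sp5 from -0.013 to 0.74, Arg1 from -0.62 to 0.050, Lrp6 from -0.19 to 0.16, Lgr4 from -0.071 to 0.054, Slc1a2 from -0.26 to 0.24, Wnt9b from -0.11 to 0.34, Rspo3 from -0.14 to 0.96 and Glul from -0.45 to 0.0080. Cd44 did not pass in 7 and Birc5 in 9 alternatives, while Igfals (1), Dkk3 (2) and Cyp2c11 (1) passed in some.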
